A study of Mus musculus with 48 samples.

Results

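The duodenum and the colon are the ends of the sampled mouse gut, and their methylated DNA was compared within each of 12 mice. The comparison used the 12 Colon and 12 Duodenum libraries, 24 of the 48 libraries in the series, and the counts of 68019 of 94535 autosomal regions that passed the filter on low counts. DNA was sheared, fragments with methylated CpG were captured with a methyl-CpG-binding domain (MBD), and the captured fragments were sequenced. The mice were of the models labelled GermFree (7 mice, germ free) and ConvR (5 mice, conventionalized), and every mouse gave both sections, so the mouse was the block in each fit and the replicates were separate animals. No treatment or allele sets the sections apart, and strain, sex and age are not given in the labels. Levels are counts scaled to library size (CPM, with TMM factors over the 24 libraries), and differences are log2 of colon over duodenum. Sums over all regions called higher or lower use TMM factors over the 48 libraries instead, which is another scale. A region was called when the edgeR quasi-likelihood test gave a Benjamini-Hochberg adjusted p under 0.05 over all tested regions.

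DNA methylation in mammals is a methyl group on the cytosine of CG pairs. It is laid down by Dnmt enzymes, oxidised by Tet enzymes and read by proteins such as the methyl-CpG-binding zinc finger proteins. In the gut it covers most of the genome in every cell type, while the enhancers in use in a cell type tend to lose it, so that sections with different epithelia and different neighbouring cells can differ at such places. Captured DNA depends on the methylation of a region, its number of CG pairs and its number of copies, among other things. In whole tissue a different mix of cells and a different methylation of the same cells cannot be told apart.

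Examples of sequence at gene starts are given for regions that differed between the sections. The 250 bases before the start site are given for 3 genes in regions that rose in the colon and 3 in regions that fell, from RefSeq with assembly GRCm38.p6, 5′ to 3′ on the strand of the gene, with every CG in capitals. They were chosen to show a drug-metabolising enzyme gene, a drug pump gene and a natural killer receptor gene among the first, and a methyl-CpG reader, a receptor kinase and a tight junction gene among the second.
Ugt1a1 (chr1:88211709-88211958, plus strand): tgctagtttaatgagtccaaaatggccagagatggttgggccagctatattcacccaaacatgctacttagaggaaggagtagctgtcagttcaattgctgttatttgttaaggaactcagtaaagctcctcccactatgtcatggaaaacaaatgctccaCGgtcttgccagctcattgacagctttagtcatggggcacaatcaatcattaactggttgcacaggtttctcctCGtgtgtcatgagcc
Abcg2 (chr6:58596422-58596671, plus strand): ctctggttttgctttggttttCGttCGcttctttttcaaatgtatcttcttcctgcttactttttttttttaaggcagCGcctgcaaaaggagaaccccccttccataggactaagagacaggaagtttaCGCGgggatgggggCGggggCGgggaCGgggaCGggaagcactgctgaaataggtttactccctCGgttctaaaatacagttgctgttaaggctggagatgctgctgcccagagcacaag
Klra4 (chr6:130067272-130067521, minus strand): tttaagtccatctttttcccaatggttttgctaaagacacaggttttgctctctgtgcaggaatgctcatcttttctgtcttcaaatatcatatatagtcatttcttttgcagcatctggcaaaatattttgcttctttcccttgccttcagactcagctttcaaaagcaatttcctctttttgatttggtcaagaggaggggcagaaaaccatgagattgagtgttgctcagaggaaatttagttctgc
Zbtb38 (chr9:96731676-96731925, minus strand): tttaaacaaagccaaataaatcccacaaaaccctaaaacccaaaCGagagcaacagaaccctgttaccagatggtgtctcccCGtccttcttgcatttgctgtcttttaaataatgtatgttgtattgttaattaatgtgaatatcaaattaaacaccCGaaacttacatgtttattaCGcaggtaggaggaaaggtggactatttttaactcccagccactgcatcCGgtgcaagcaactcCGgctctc
Mst1r (chr9:107914753-107915002, plus strand): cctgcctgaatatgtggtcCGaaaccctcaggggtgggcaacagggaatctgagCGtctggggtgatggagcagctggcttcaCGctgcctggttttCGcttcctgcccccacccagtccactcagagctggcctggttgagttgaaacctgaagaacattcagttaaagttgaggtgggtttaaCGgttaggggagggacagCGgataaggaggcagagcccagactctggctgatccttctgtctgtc
Cldn14 (chr16:94008838-94009087, minus strand): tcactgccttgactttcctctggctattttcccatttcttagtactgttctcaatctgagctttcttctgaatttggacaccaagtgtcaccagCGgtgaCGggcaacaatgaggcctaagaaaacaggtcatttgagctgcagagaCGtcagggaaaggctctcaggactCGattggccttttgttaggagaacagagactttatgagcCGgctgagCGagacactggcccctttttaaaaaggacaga
The first 3 lie in regions higher in the colon and hold 2, 10 and 0 CG pairs, and the last 3 lie in regions lower in the colon and hold 6 each. Over all such sequences, counting the letters CG (which read the same on both strands), the 126 promoter sequences inside regions higher in the colon had a median of 2 CG pairs and 32 of them had none. The 40 inside regions lower in the colon had a median of 7. The median was 5 for the 1872 inside any tested region and 6 for all 31396 autosomal promoters in the table, of which 92.4% hold at least 1 CG. The 1872 sequences belong to 1675 genes, the 126 to 112 and the 40 to 36, so genes with several starts count more than once. The 126 also include neighbouring members of the Pramel, Klra, Speer4 and Zfp families, and are not separate observations. By the median, promoter sequences in regions higher in the colon were therefore poor in CG and those in regions lower in the colon were not. Single sequences departed from this, as the 10 CG pairs at Abcg2 show. The 250 bases are a small part of broader regions, whose own CG content was not examined.

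Captured DNA differed between colon and duodenum at 2581 regions (3.79% of those tested). It was higher in the colon at 1544 (2.27%), with a median log2 difference of 0.39, and lower at 1037 (1.52%), with a median of -0.46. The differences were modest: the median called region held 1.31 times the duodenal level where it was higher and 0.728 times where it was lower, while the median of all tested regions was -0.01. Of the higher regions 857 were higher in at least 11 of 12 mice, and of the lower regions 444 were lower in at least 11 of 12. In each mouse alone the median log2 difference over the higher regions was positive, from 0.14 in GermFree mouse 3 to 0.62 in GermFree mouse 6, and that over the lower regions was negative, from -0.21 in GermFree mouse 3 to -0.57 in GermFree mouse 4. These per-mouse medians describe regions chosen for the difference and are no test of it. The split of calls depended on the scaling: 59.8% of calls were higher in the colon with TMM, 50.1% with offsets fitted to abundance and 44.9% with library totals, under which the median of all tested regions was -0.03. DESeq2 called 724 regions, 86.5% of them higher, and gave no adjusted p to 56985 regions. The fit without the mouse as a block called 1304, and the fit without GermFree mouse 4 called 1685.

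**Figure D1:**
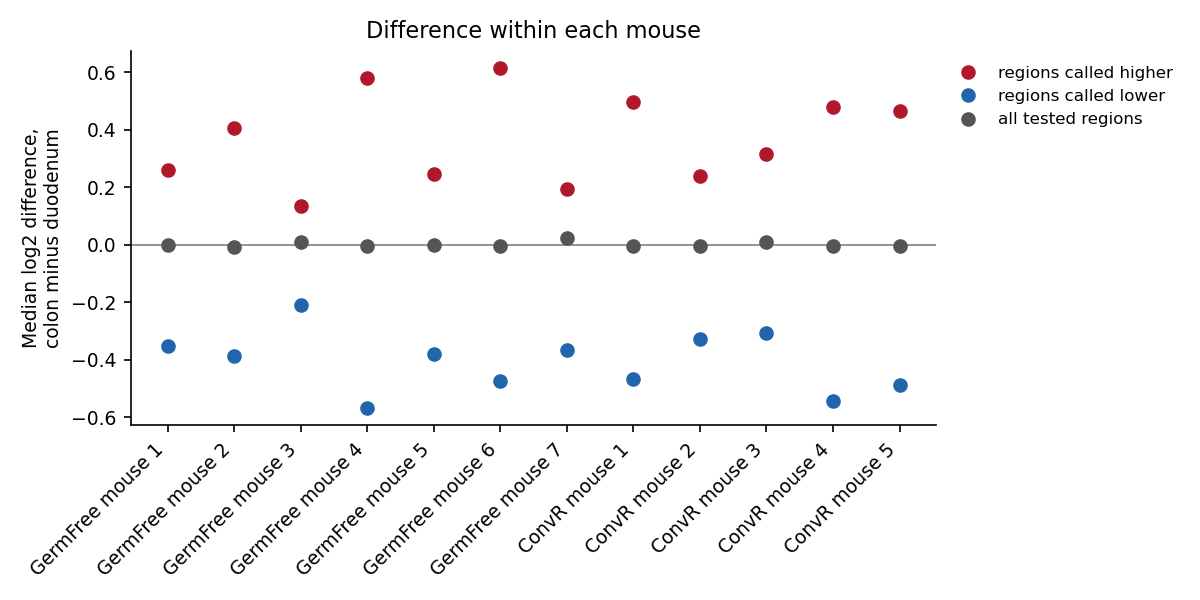
Median log2 difference (colon minus duodenum, vertical axis) in each of 12 mice (horizontal axis) over the 1544 regions called higher (red), the 1037 called lower (blue) and all 68019 tested regions (grey). All 12 red points lie above 0 and all 12 blue points below, with GermFree mouse 3 nearest to 0, while the grey points stay between -0.01 and 0.02.

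The libraries held 1227571 to 3033782 counts, with a median count per region of 9 to 23, and their totals did not separate the sections (exact sign-flip permutation p = 0.529). No 2 libraries held identical counts, and within a group and section each library had a median correlation of 0.791 to 0.862 with its fellows. Over the higher regions the summed level ran from 37347 to 74060 CPM among the 12 duodenum libraries and from 46116 to 83102 among the 12 colon libraries. The ConvR mouse 3 libraries stood apart, with the lowest of these sums in both sections. They also had the highest sums over the lower regions (24776.5 CPM in the duodenum and 19940 in the colon). Of the colon and duodenum libraries, the duodenum libraries of ConvR mice 1 and 3 held the fewest counts (1227571 and 1438806). These same libraries had the lowest median correlations (both 0.791), followed by the colon of ConvR mouse 3 (0.794). Their levels were also high at Notch2, Cacng2, Gm34259 and Gm24105, described below. Whether their few counts had a part in this was not tested. What sets libraries of the same section apart was not tested. Without ConvR mice 1 and 3, 2162 regions were called. The labels could not be checked with gene activity, since captured DNA is no measure of it.

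Higher regions were broad and lay outside protein-coding genes more often than lower ones. Their median width was 3304 bp, against 2002 bp for lower regions and 1729 bp for all tested regions, and their median level was 23.2 CPM against 12.9 and 10.5. Of the higher regions 49.2% belonged to a protein-coding gene (overlapping it or within 5 kb), against 76.7% of the lower and 67.7% of all tested regions. Among the 4833 regions wider than 5000 bp, 10.9% were called higher and 3.41% lower. Among the 9062 regions of up to 800 bp the order was the opposite, with 0.850% higher and 1.86% lower. Width, level and the CG content of promoters moved together with the direction of the calls. Their part in the result was not tested.

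**Figure D2:**
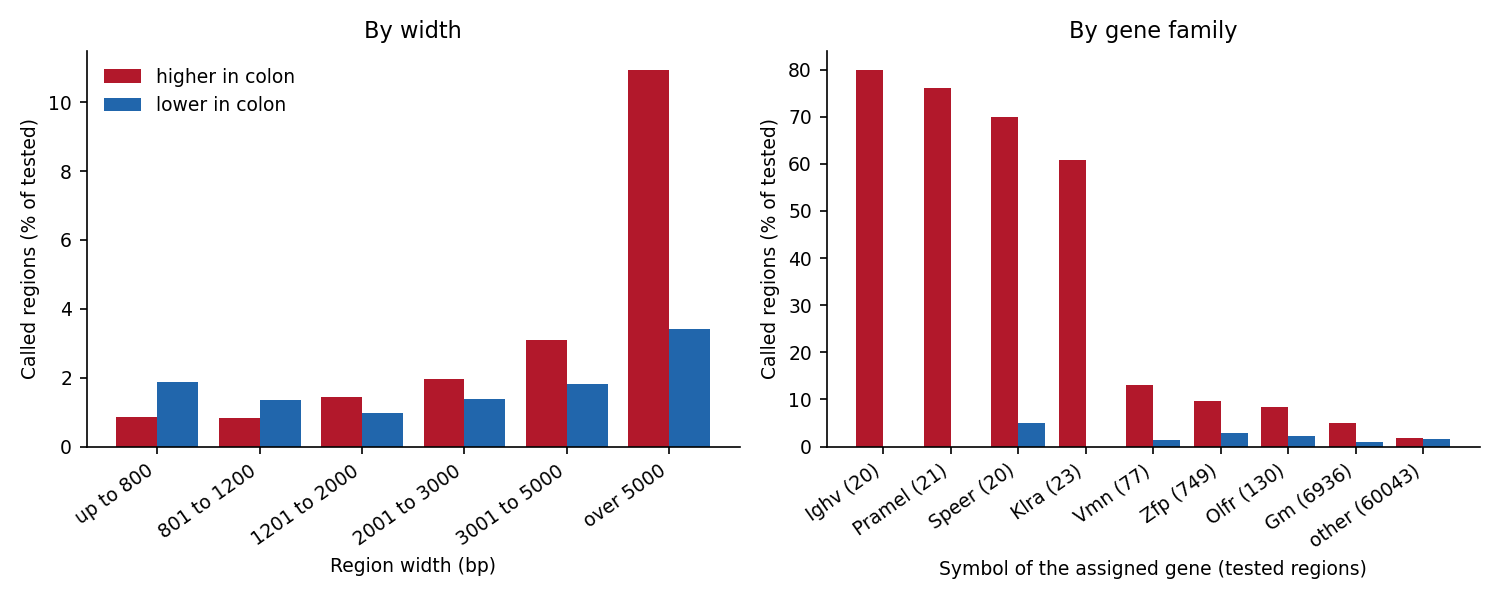
Percent of tested regions called higher (red) or lower (blue) in the colon, by region width in bp (left) and by the first letters of the assigned gene's symbol, with the number of tested regions in brackets (right). The share called higher is 10.9% in the widest class, and 80% of 20 Ighv, 76.2% of 21 Pramel, 70% of 20 Speer and 60.9% of 23 Klra regions were higher in the colon.

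The shift could be seen in whole libraries, without any call. The widest 25% of autosomal regions (over 2205 bp) took 52.3% ± 0.791 of autosomal counts in the duodenum and 53.3% ± 0.669 in the colon (SD, n = 12), higher in the colon in 12 of 12 mice. The narrowest 25% (up to 582 bp) took 10.1% ± 0.342 and 9.70% ± 0.275, lower in the colon in 12 of 12. Gene bodies more than 1 kb from a gene end fell from 54.2% ± 0.457 to 53.7% ± 0.350, also in 12 of 12, and DNA outside genes rose from 23.4% ± 0.282 to 23.8% ± 0.281. Each of these 4 had an exact two-sided sign-flip permutation p of 0.000488, the smallest that 12 mice allow (adjusted p = 0.000651 over 8 tests). Regions within 1 kb of a gene end rose in 9 of 12 mice, from 22.4% to 22.5% (exact permutation p = 0.0376, adjusted p = 0.0430). That last call was lost with 2 kb in place of 1 kb (adjusted p = 0.506), and without ConvR mouse 1, 2, 3 or 5 or GermFree mouse 1, 2, 4, 5 or 6 (differences of 0.101 to 0.127 percentage points). In the jejunum and ileum the widest regions took 52.4% ± 0.577 and 52.3% ± 0.843.

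Regions higher in the colon often lay close together. Called regions of 1 direction with gaps of at most 50 kb formed 107 stretches of 3 or more, and 92 of these were higher in the colon. The higher stretches held 688 regions, 44.6% of the higher calls, and the lower ones 58 regions, 5.59% of the lower calls. Some stretches lay in families of similar neighbouring genes and others at single genes or outside genes. Counted by the first letters of the gene symbol, the families with a high share of called regions held few of the 1544 higher regions. These were 16 of 21 tested at Pramel and 14 of 20 at Speer genes (expressed mainly in germ cells). There were also 14 of 23 at Klra genes of natural killer cells and 16 of 20 at variable segments of the antibody heavy chain (Ighv). Of all tested regions 2.27% were higher and 1.52% lower. Zinc finger genes (Zfp, many of them repressors of transposable elements) had a smaller share, with 73 of 749 higher (9.75%) and 22 lower (2.94%). Their median log2 was -0.002. Family members with other symbols would be missed by this count, and the Speer4 stretch on chromosome 5 also holds Gm21149, Gm21190 and Gm21083. At genes with a Gm symbol 348 of 6936 regions were higher (5.02%) and 72 lower (1.04%). How many of these belong to families of similar genes was not examined. Reads from similar copies are hard to place, and the sources used here do not state how they were placed. Single members of such families are therefore uncertain.

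The stretch with most calls lay beyond the Klra genes on chromosome 6 (130520702 to 131043459; Gm38706, Gm6600 and LOC115490339), where 39 of 45 tested regions were called higher. Its summed level ran from 1257 CPM through a median of 2497 to 3885 in the duodenum and from 1492 through 3565 to 4283 in the colon. It was higher in the colon in 12 of 12 mice, by 1.25 times in the means, although only 4 colon libraries exceeded every duodenum library. The zinc finger stretch on chromosome 4 (147232001 to 147817409; Zfp978 to Zfp984) had 32 of 54 regions called, with 2556, 3827 and 5107 CPM (lowest, median and highest) in the duodenum and 3073, 4938 and 5547 in the colon. At Rasgrp3, which encodes a Ras activator, and Fam98a on chromosome 17 (75489342 to 75849650) 22 of 28 regions were called, with 2038 CPM ± 490 in the duodenum and 2497 ± 514 in the colon (SD, n = 12). The Speer4 stretch on chromosome 5 (15457770 to 15715521) had 22 of 24 called, with 3077 ± 587 and 3798 ± 506. Each of these stretches was higher in the colon in 12 of 12 mice with overlapping ranges. The stretches were joined from regions called in these same libraries, so the agreement of the mice is no test of them. Their means were 1.22 to 1.25 times as high in the colon, and over all 92 higher stretches the ratio ran from 1.11 to 1.46.

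The 15 stretches lower in the colon spanned 19.4 to 105.1 kb, against 10.8 to 585.4 kb for the higher ones. The Pcdha stretch on chromosome 18 (36930045 to 37000284), which encodes the clustered protocadherins of neurons, had 6 of 10 regions called, with 134, 158 and 180 CPM in the duodenum and 89.9, 125 and 163 in the colon. Of the 12 colon libraries 10 lay below every duodenum library. Cit, the gene of citron kinase of cell division (chromosome 5, 115853808 to 115957288), had 6 of 9 called, with 482 ± 43.7 and 416 ± 43.4. Atp9a, a phospholipid flippase gene (chromosome 2, 168626150 to 168691435), had 5 of 10 called, with 242 ± 18.9 and 201 ± 16.3, and 11 colon libraries lay below every duodenum library. Pxn, which encodes the focal adhesion protein paxillin, and Gcn1 (chromosome 5, 115508026 to 115606896) had 5 of 9 called, with 361 ± 40.8 and 313 ± 25.7. The level fell in 12 of 12 mice at the last 3 and in 11 of 12 at Pcdha, which is no test either, since these stretches too were joined from called regions.

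At some single regions nearly all colon libraries lay beyond the duodenum libraries. A region within 5 kb of Sfi1, the gene of a centrin-binding protein of the spindle pole (chromosome 11, 3126647 to 3127923), had 12.3, 30.8 and 33.8 CPM in the duodenum and 23.1, 42.9 and 48.6 in the colon. The log2 difference was 0.56 (SE 0.08; edgeR adjusted p = 6.88e-08), and 11 of 12 colon libraries exceeded every duodenum library. Serpinb9e, of the serpin family that inhibits granzymes (chromosome 13, 33252189 to 33253844), had 3.07, 8.44 and 11.98 CPM against 7.21, 13.6 and 18.6 (log2 0.68, SE 0.13; edgeR adjusted p = 0.000126). Eya4, a transcriptional co-activator gene (chromosome 10, 23327799 to 23329791), had 6.82, 8.10 and 9.68 against 9.61, 13.2 and 16.6 (log2 0.68, SE 0.14; edgeR adjusted p = 0.000188). Both were higher in 12 of 12 mice, and 11 of 12 colon libraries lay above every duodenum library. Among called regions at protein-coding genes with 1 direction in at least 11 of 12 mice, the largest gain was at the placental cathepsin gene Cts3 (log2 0.76, SE 0.15), and others were at Rgs12 (0.72), Ccdc90b (0.72) and Dnm3 (0.70), a dynamin gene. Levels there were low, between 5.53 and 8.28 CPM in the duodenum on average.

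Under the same limit of 11 of 12 mice, the largest losses at protein-coding genes were likewise at narrow regions with few counts. Called losses outside that limit included Gm34259 (log2 -1.73), Gm24105 (-1.18) and Cacng2 (-0.95), where the duodenum of ConvR mice 1 and 3 was high. At Slc22a22, an organic anion transporter gene (chromosome 15, 57291008 to 57291742), levels were 5.27, 7.10 and 11.5 CPM in the duodenum and 0.541, 3.70 and 8.65 in the colon, a fall by 0.99 on the log2 scale (SE 0.19; edgeR adjusted p = 0.000124). Btbd18 (chromosome 2, 84659316 to 84660067) had 6.59, 8.19 and 10.1 CPM against 2.15, 4.02 and 8.17 (log2 -0.88, SE 0.18), and 11 of 12 colon libraries lay below every duodenum library. At Lrmda (chromosome 14, 22074365 to 22075022) the values were 5.13, 6.67 and 9.21 against 1.51, 3.71 and 5.29 (log2 -0.86, SE 0.20), again with 11 of 12 colon libraries below. Large2, which encodes a glycosyltransferase of dystroglycan (chromosome 2, 92369523 to 92370425), had 5.27, 9.51 and 11.6 against 3.25, 5.01 and 7.57 (log2 -0.76, SE 0.17). Other losses were at Snrnp40 (log2 -0.87), Mpp2 (-0.85), Mllt1 (-0.84), Usp44 (-0.81), Zbtb7b (-0.81), the regulator of helper T cell fate, and Zbtb43 (-0.75). Better measured were Eppk1, the gene of the epithelial linker protein epiplakin (52.5 CPM ± 8.97 in duodenum, 37.7 ± 8.62 in colon, log2 -0.45), and Cdc42bpb, a kinase gene of the actin skeleton (43.4 ± 7.19, 31.6 ± 5.93, log2 -0.44; SD, n = 12).

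**Figure D3:**
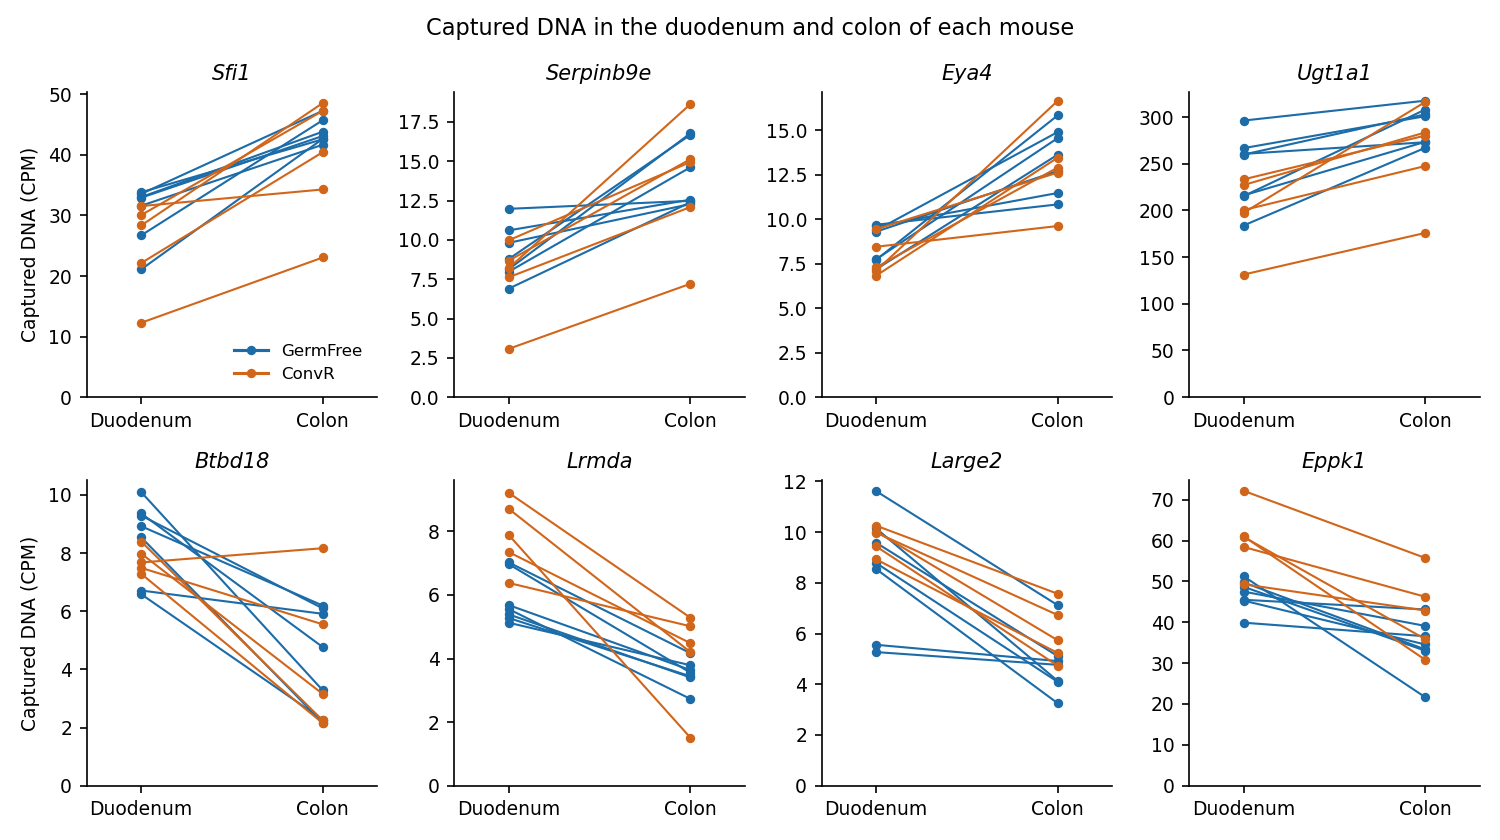
Captured DNA in CPM (vertical axis, from 0) in the duodenum and colon of each mouse (lines join the sections of 1 mouse; blue GermFree, orange ConvR) at 4 regions higher (top) and 4 lower in the colon (bottom). All 12 lines rise at Sfi1, Serpinb9e, Eya4 and Ugt1a1, all 12 fall at Lrmda, Large2 and Eppk1, and 1 of 12 rises at Btbd18.

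Regulators of intestinal identity were called about as often as all regions. Of 19 core regulators 11 had a tested region, and 2 of their 50 regions were called (3.79% of all tested regions were), both lower in the colon, at Foxa3 and Foxa1, with a median log2 of -0.07 over the 50. Foxa3, a pioneer factor gene (chromosome 7, 19013798 to 19014941), had 6.49, 10.3 and 12.2 CPM in the duodenum and 4.04, 6.91 and 9.61 in the colon (log2 -0.59, SE 0.16; edgeR adjusted p = 0.0106). It was lower in 11 of 12 mice, and 6 colon libraries lay below every duodenum library. Leaving out ConvR mouse 5 ended the call (log2 -0.52). The call at Foxa1 (log2 -0.35) was lost when ConvR mouse 2 (-0.35), 3 (-0.34) or 4 (-0.31), or GermFree mouse 4 (-0.25) or 6 (-0.30), was left out.

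Position along the gut was followed through its known regulators. Pdx1, the duodenal and pancreatic homeobox gene, was the 1 called gene of 15 position regulators (9 with a tested region). Its region at the gene end (chromosome 5, 147272206 to 147273119) had 1.22, 4.98 and 7.78 CPM in the duodenum and 4.17, 6.63 and 11.2 in the colon, higher in 10 of 12 mice (log2 0.62, SE 0.19; edgeR adjusted p = 0.0323). The ranges overlapped, and the call needed each of 6 mice: the log2 difference was 0.59, 0.52 and 0.57 leaving out ConvR mice 1, 3 and 4, and 0.58, 0.62 and 0.55 leaving out GermFree mice 2, 4 and 6, with no call. The 4 tested regions at Gata4, a factor of the upper gut, and at Hoxa3, Hoxa5, Hoxa6, Hoxd3 and Hoxd4 were not called, with log2 differences between -0.51 and 0.26 and edgeR adjusted p from 0.123 to 0.953. No region at Cdx2 or at the 18 posterior Hox genes was tested.

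Genes of absorption were called no more often than the 3.79% of all tested regions. In the brush border list, 2 of 55 regions were called, both lower: Cdhr5, which encodes a cadherin linking microvilli (8.53 CPM ± 2.99 in duodenum, 5.58 ± 1.78 in colon; log2 -0.60), and Myo1a, the brush border myosin gene (15.2 ± 3.82, 11.5 ± 2.99; log2 -0.39). In nutrient transport 1 of 73 was called, at Slc7a7, a basolateral exporter of cationic amino acids (6.73 ± 2.04, 4.47 ± 1.71; log2 -0.63), and in lipid absorption 1 of 82, at the fatty acid desaturase gene Scd2 (log2 -0.35). The Cdhr5 call ended on leaving out ConvR mouse 4 (log2 -0.52), GermFree mouse 1 (-0.49) or GermFree mouse 3 (-0.54), and the Slc7a7 call on leaving out GermFree mouse 4 (-0.57) or 6 (-0.61). Myo1a was lost without any 1 of ConvR mice 1, 2, 4 and 5 and GermFree mice 2, 4, 5 and 6 (log2 -0.41 to -0.32), and Scd2 on leaving out ConvR mouse 1 (-0.31), ConvR mouse 4 (-0.33) or GermFree mouse 1 (-0.28).

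In the list of drug and bile metabolism 6 of 38 regions were called higher and 1 lower (Cyp2c66), against 2.27% and 1.52% of all tested regions, with a median log2 of 0.10. The 6 lay at 4 of 19 tested genes, and 3 of them were neighbours at Abcg2. The broad region over the start of Ugt1a1, the bilirubin glucuronidating enzyme (chromosome 1, 88211598 to 88228779), had 131, 222 and 296 CPM in the duodenum and 176, 282 and 317 in the colon (log2 0.32, SE 0.06; edgeR adjusted p = 2.22e-05), higher in 12 of 12 mice. Abcg2, the gene of an efflux pump for drugs and urate (chromosome 6, 58588839 to 58605588), had 90.1, 110 and 150 against 108, 148 and 173 (log2 0.34, SE 0.06; edgeR adjusted p = 2.08e-05). With offsets fitted to abundance the log2 difference was 0.07 at Ugt1a1, which then did not pass, and 0.17 at Abcg2. Aldh1a1, which makes retinoic acid (8.02 ± 2.78, 12.1 ± 2.40; log2 0.58), and the pump gene Abcb1a were also higher. Among 90 regions of the list drawn up for colon epithelium 2 were called, a share below the 3.79% of all tested regions. Both were higher, at Nxpe4 (9.31 ± 2.96, 13.2 ± 2.74; log2 0.52) and at Muc6 (23.7 ± 5.97, 31.1 ± 6.54; log2 0.38), a mucin gene that is not particular to the colon. Membership of the list was not checked against gene activity.

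Natural killer genes, named in the title of the series, stood apart as a list: 22 of 58 regions at 11 of 26 tested genes were called, all higher in the colon. Of all tested regions 3.79% were called and 2.27% were higher. The median log2 was 0.28 against -0.01 over all tested regions. The genes were Klra1, 3, 4, 7, 8 and 9, the NKG2D ligand genes H60b, H60c, Raet1d and Raet1e, and Il12rb1, a subunit of the interleukin-12 receptor. Except at H60c and Il12rb1, the called regions were neighbours in the Klra cluster on chromosome 6 or the Raet1 and H60b cluster on chromosome 10. The 22 regions are therefore not separate observations. Counting only regions that overlap the gene, 14 of 43 at 8 of 23 tested genes were called, all higher. H60c, Raet1d and Il12rb1 then had no call. Klra1, which encodes a Ly49 receptor (chromosome 6, 130364074 to 130369924), had 27.6, 85.9 and 129 CPM in the duodenum and 49.98, 121 and 151 in the colon (log2 0.43, SE 0.06; edgeR adjusted p = 2.38e-07), higher in 12 of 12 mice. H60c (chromosome 10, 3247409 to 3251635) had 15.9, 24.8 and 34.0 against 21.6, 34.1 and 51.6 (log2 0.50, SE 0.09). Klra8 rose by a log2 of 0.35, or 0.19 with offsets fitted to abundance. These families are the broad multi-copy kind described above. The Ighv segments, whose DNA is cut out of B cells as they rearrange it, had a median log2 of 0.35 over their 20 tested regions. At Ighv1-63 (chromosome 12, 115492672 to 115501713) the mean was 52.6 CPM ± 14.9 in the duodenum and 73.1 ± 14.1 in the colon (SD, n = 12; log2 0.47, SE 0.07; edgeR adjusted p = 1.54e-07).

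Markers of the other cells that gut tissue can hold gave few calls. Over 11 lists of lymphoid, myeloid, muscle, stromal, neural, endothelial, secretory and gland cells, 17 of 598 regions were called (2.84%, against 3.79% of all tested), 10 higher and 7 lower. The summed level of the 598 regions ran from 7721 to 7964 CPM in the duodenum and from 7642 to 8029 in the colon, and it was higher in the colon in 3 of 12 mice. Mesenchyme (48 regions), endothelium and mesothelium (62), Paneth (16) and enteroendocrine genes (26) had 0 calls. B and plasma cell genes had 5 of 84, of which 4 were higher, all at the complement receptor gene Cr2, and 1 lower. The lower region overlapped Pold1 and lay only within 5 kb of Spib, a factor of B cells and M cells (63.8 CPM ± 6.94 in duodenum, 51.4 ± 9.40 in colon, log2 -0.31). The smooth muscle gene Synpo2 had a region lower (log2 -0.67) and another higher in the colon. The part of the cell mix in the result was not tested.

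Genes that write, erase and read methylation had 5 of 62 regions called, 4 of them lower, against 3.79% of all tested regions. Tet1, which oxidises methylcytosine (chromosome 10, 62812498 to 62813798), had 8.20, 10.3 and 16.3 CPM in the duodenum and 3.05, 7.61 and 12.97 in the colon (log2 -0.58, SE 0.15; edgeR adjusted p = 0.00700), lower in 12 of 12 mice. Zbtb38, the methyl-CpG reader whose start is printed above, had 2 called regions, the first at 19.6 ± 2.79 and 14.5 ± 3.09 (log2 -0.45). The methyltransferase gene Dnmt3a was also lower and the remodeller gene Hells higher, and each lost its call on leaving out any 1 of 7 mice, with log2 differences that stayed at -0.38 to -0.31 for Dnmt3a (-0.36 with all mice) and 0.52 to 0.56 for Hells (0.56). Calls at imprinted genes (3 of 101) and in the Wnt, BMP, hedgehog and Notch list (5 of 165) were below the 3.79% of all tested regions. At imprinted genes all 3 were lower: Gnas in 7 of 12 mice, Rtl1 in 10 of 12 and Magel2, the last from 24.2 CPM ± 3.79 to 17.5 ± 4.22 (SD, n = 12; log2 -0.46) in 12 of 12 mice. The 5 of the signalling list were also lower, at Bmp7, Gli2, Lrp6, Notch2 and Smad7. Leaving out GermFree mouse 7 ended the call at Gli2 (log2 -0.51, from -0.62), and leaving out ConvR mouse 5 ended that at Smad7 (-0.28, from -0.38). Notch2 stood high in the duodenum of ConvR mice 1 and 3 (63.8 and 46.1 CPM, against a median of 15.2 over the 12), was lower in the colon in 8 of 12 mice, and lost its call once ConvR mouse 1 (log2 -0.37) or ConvR mice 1 and 3 together (-0.19) were left out.

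The difference was seen in each model on its own. In GermFree mice 607 regions were called (0.922%), 428 higher and 179 lower, and in ConvR mice 649 (0.888%), 448 higher and 201 lower. The lists share no library. They had 164 regions in common, 27.0% of the GermFree and 25.3% of the ConvR calls, and all 164 had the same direction. Of the GermFree calls tested in ConvR mice 572 of 600 (95.3%) had the same sign there, against 61.5% of all regions tested in both. Single mice weighed heavily: GermFree calls fell to 63 without mouse 4, 92 without mouse 2, 111 without mouse 6 and 324 without mouse 1, and ConvR calls to 151 without mouse 5, 316 without mouse 1 and 335 without mouse 4.

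Few regions differed between the models in their colon-duodenum difference. A test of the interaction called 8 regions (0.0118%), with 2982 at an unadjusted p under 0.05. The 8 lay at Gm11606, Cnih3, Cacng2, Gm34259, Lrrc69, Gm24105 and at 2 regions without a gene. At each the mean of the ConvR mice was lower in the colon, and the duodenum of ConvR mice 1 and 3 stood above the ConvR median. The ConvR median also fell, except at Cacng2 (5.81 CPM in the duodenum, 7.47 in the colon). The duodenum libraries of ConvR mice 1 and 3 held the fewest counts of the colon and duodenum libraries. Whether this bears on the 8 calls was not tested. At Gm34259 (chromosome 17, 4625871 to 4626954) the duodenum of ConvR mice 1 and 3 held 147 and 117 CPM, the median of the 5 ConvR duodenums was 18.1, and the 5 ConvR colons ran from 5.55 to 17.9. GermFree mice had 4.04 to 29.6 CPM in the duodenum and 2.27 to 8.26 in the colon (interaction log2 1.497; edgeR adjusted p = 0.0192). This region was also called lower in GermFree mice alone (log2 -0.77; edgeR adjusted p = 0.0416). Without ConvR mouse 1 or without ConvR mouse 3 the interaction called 0 regions, likewise without GermFree mouse 1 or 4, with DESeq2 and without the mouse as a block. It called 27 without ConvR mouse 2, 22 without ConvR mouse 5, 20 without GermFree mouse 2, 17 without ConvR mouse 4 and 2 without GermFree mouse 6.

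The other sections place the colon apart from the small intestine. In the same paired fit, jejunum and duodenum differed at 17 regions (0.0239%), ileum and duodenum at 0 (0%, with 3536 at an unadjusted p under 0.05) and ileum and jejunum at 3 (0.00404%). The colon differed from the jejunum at 386 (0.566%) and from the ileum at 3353 (4.88%). These comparisons share libraries with the colon-duodenum comparison, except that of ileum and jejunum, which shares its mice only. Over the regions higher in the colon the summed level was 57548 CPM ± 10810 in the duodenum, 60978 ± 6113 in the jejunum, 57751 ± 9456 in the ileum and 73113 ± 10147 in the colon (SD, n = 12). Over those lower in the colon it was 19695 ± 2058, 17645 ± 651, 18826 ± 1581 and 15185 ± 1610. The means of jejunum and ileum differed by less than these SDs, and the difference was not tested. Over the higher regions their order differed between the models: 60521 CPM in the jejunum and 61081 in the ileum of GermFree mice, and 61617 and 53089 in ConvR mice. In the fit of ileum against jejunum, 273 of 1525 regions that were higher in the colon were higher in the ileum (17.9%, against 50.3% of all tested regions), and 789 of 1022 that were lower in the colon (77.2%).

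**Figure D4:**
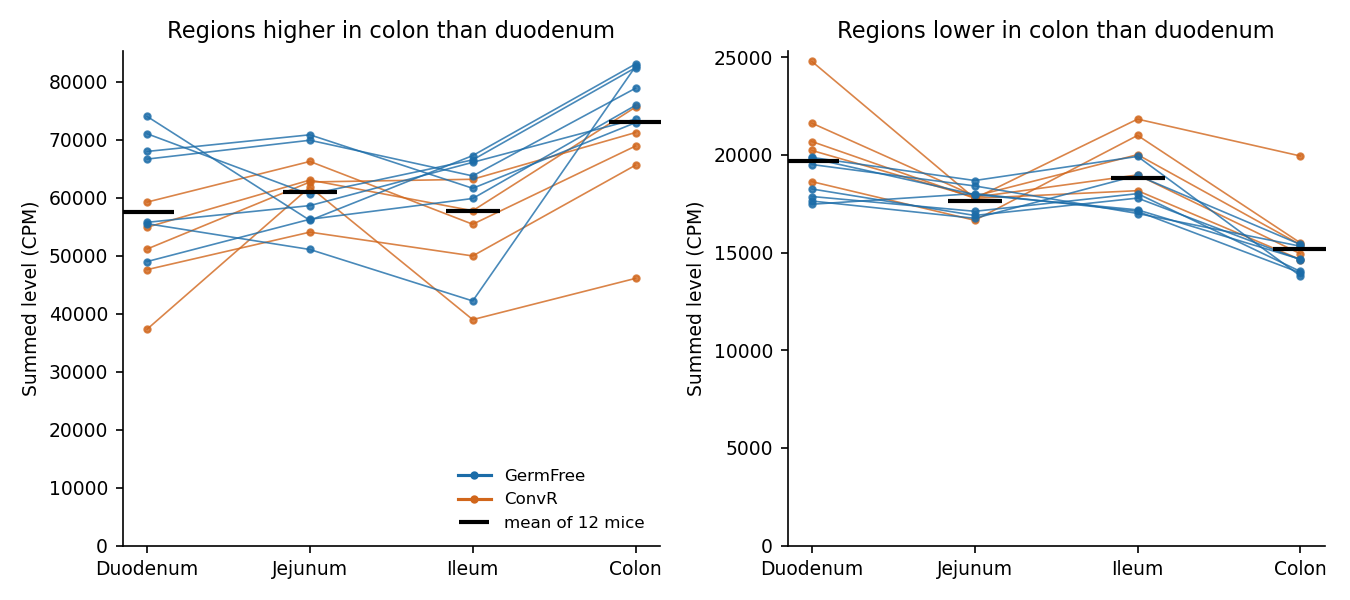
Summed level in CPM (vertical axis, from 0) of the 1544 regions higher (left) and the 1037 lower in the colon than the duodenum (right), in 4 gut sections (horizontal axis). Lines join the sections of 1 mouse (blue GermFree, orange ConvR) and black bars are means of 12 mice. The colon means are set apart by the choice of regions, and the ileum means lie between those of the duodenum and jejunum on both sides.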

How the data were processed

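DNA captured by MBD from 4 gut sections of 12 mice was sequenced as 100-bp single-end reads, per the labels' protocols. The submitters' processing notes name the tools Trim Galore 0.3.7, cutadapt 1.4.2, MACS2 and featureCounts and the build mm10. The aligner, and how duplicates, reads with several matches and pooling were handled, are not stated by the sources used here. The authors deposited whole-number counts per region for 48 libraries and a peak list with a score per region, used only for 1 alternative. Every region name in it carries the GermFree label.

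From the counts, edgeR 4.0.16 (TMM, filterByExpr with a minimum count of 10, quasi-likelihood test, R 4.3.3) was fitted on the whole table with the mouse as a block, and autosomal regions are reported. The block rests on the labels, which give the same mouse for both sections. The deviations of a mouse's libraries correlated at -0.0144 to 0.235 (median 0.0286, 12 mice). A region belonged to a gene if it overlapped it or lay within 5 kb, from RefSeq genes of GRCm38.p6, the assembly that mm10 names, and 653 of 656 listed genes matched. Shares were compared with exact sign-flip tests over 4096 patterns in Python 3.11.15. The fit was tested on simulated data.

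The members and lists were chosen with earlier results of these data known. Named were, among called regions with a mean of at least 1 CPM and 1 direction in at least 11 of 12 mice, the 12 largest differences each way at protein-coding genes, the 3 smallest p each way, up to 4 genes per list by p, the position regulators and the 4 stretches with most calls each way. The text gives a part of these. Promoter examples and Klra8, Abcb1a, Cyp2c66 and other list members outside the rule were chosen after their values were seen. Alternatives were DESeq2 1.42.0, other scalings, filters, blocks and region sets, and leaving out each mouse. Counting error only enters the precision of single libraries. Sex chromosomes were left out, and some genes are not reported here.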

Additional observations from a re-analysis of the deposited data

Results flagged for a closer look

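Among 228 groups of libraries, 12 had a library far from the others by Dixon's test, and chance gives about 1 in 20. ConvR mouse 3 was the distant library 5 times. Its colon held 33.6 CPM at Ighv1-63 (nearest other ConvR colon 67.3) and 19.2 at Myo1a (12.9), and its summed level over the regions lower in the colon was 19940 CPM (15492). Its duodenum held 16.1 CPM at Gli2 (11.3) and 26.1 at Dnmt3a (18.5). The colon of ConvR mouse 2 held 1.51 CPM at Lrmda (4.20), and its jejunum summed to 16649 CPM over the regions lower in the colon (17768). ConvR mouse 5 held 2.10 CPM at Slc7a7 in the colon (5.04) and 30.5 at Smad7 in the duodenum (21.0). GermFree mouse 5 held 16.9 CPM at Nxpe4 in the colon (13.2). GermFree mouse 4 held 27.3 CPM at Foxa1 in the duodenum (19.5), and its ileum summed to 42224 CPM over the regions higher in the colon (59898).

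The colon-duodenum difference itself differed between the models at 8 regions in the edgeR test of the interaction. The log2 difference of GermFree minus ConvR was 1.18 at Gm11606, 1.52 at Cnih3, 1.61 at Cacng2, 1.497 at Gm34259, 1.70 at Lrrc69 and 1.69 at Gm24105, with 1.57 and 1.09 at regions without a gene on chromosomes 10 (91695324 to 91696077) and 15 (75603544 to 75606632). At each of them ConvR mouse 1 had the highest duodenal level of the ConvR mice.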

How the results depend on the processing

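DESeq2 called 724 regions (626 higher, 98 lower), 44 in GermFree mice, 108 in ConvR mice and 0 for the interaction, with 392 at an unadjusted p under 0.05. It gave no adjusted p to 56985 of 68019 regions. Without the mouse as a replicate block the counts were 1304 (838 higher, 466 lower), 180 in GermFree mice, 0 in ConvR mice (5488 at an unadjusted p under 0.05 in edgeR) and 0 for the interaction. With a block by the mouse number shared by both models, 648 were lower. Leaving out each mouse gave 1685 to 2890 calls in all, 1057 to 1694 higher, 628 to 1196 lower, 63 to 873 in GermFree mice, 151 to 648 in ConvR mice and 0 to 27 for the interaction. The lower calls were 628 without GermFree mouse 4 and 661 without ConvR mouse 5. The gene-end share differed by 0.0394 percentage points with 2 kb and by 0.101 to 0.149 leaving out each mouse. Counting only regions that overlap a gene, Foxa1, Smad7, Spib, H60c, Raet1d and Il12rb1 had no called region. Without ConvR mice 1 and 3, chosen after seeing the data, 197 regions were called in ConvR mice and 0 for the interaction, and the interaction at Gm34259 turned to -0.55. The cause was not tested. Of 53 named calls, 40 passed in every fit that left out 1 mouse, and no named call turned its direction. DESeq2 gave no adjusted p to 33 of the 53, and among the others 1 did not pass (Scd2). Without the mouse as a block 8 of the 53 lost their call.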
